A study of Mus musculus with 24 samples.

Results

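The genes followed here, through RNA-seq of MS03 cells treated with drugs against focal adhesion kinase (FAK), belong to the cholesterol pathway: Hmgcs1, Idi1, Fdps, Fdft1, Sqle, Lss, Cyp51 and Insig1. They were chosen by symbol, make up 8 of the 49315 genes in the count table, and all 8 were among the 16070 genes that passed the filter on low counts. The group was labelled as synthesis and uptake genes, but 7 of its members encode enzymes of cholesterol synthesis, the eighth, Insig1, encodes a regulator of that synthesis, and none is an uptake receptor. MS03 is 1 immortalized mouse Schwann cell line, made from Nf2 flox/flox cells by infection with Cre, so every group, the DMSO controls included, carries the Nf2-/- genotype and was grown in medium with serum. For 24 hours cells received DMSO, a kinase inhibitor at 1 μM (defactinib, VS-4718, GSK2256098 or ifebemtinib, the last labelled IN10018), or a PROTAC, namely PROTAC FAK Degrader 1 at 1 μM, GSK215 at 0.1 μM or BSJ-04-146 (labelled BSJ-04-0146) at 0.1 μM. A kinase inhibitor blocks the catalytic activity of FAK, whereas a PROTAC brings the protein to a ubiquitin ligase for destruction. Each of the 8 groups held 3 libraries called biological replicates, 24 in all, and whether they came from separate cultures is not stated beyond that name, so p-values measure the spread between these libraries.

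Cholesterol is built from acetyl-CoA. Hmgcs1 makes HMG-CoA, later steps turn mevalonate into the isoprene unit that Idi1 isomerizes, Fdps joins these units into farnesyl pyrophosphate, Fdft1 condenses farnesyl pyrophosphate to squalene, Sqle oxidizes squalene, Lss closes its rings to give lanosterol, and Cyp51 starts the trimming of lanosterol toward cholesterol. These genes are known targets of the transcription factor SREBP-2, which leaves the endoplasmic reticulum with its escort SCAP when membrane sterol is low. Insig1 holds SCAP and SREBP in place when sterol is plentiful and is itself a target of SREBP. Schwann cells are known for a high rate of cholesterol synthesis, since cholesterol is a main lipid of myelin.

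Library totals ran from 14472462 to 27449516 counts, and each of the PROTAC libraries (up to 21588406) was smaller than each of the other libraries (from 21654444). No member had fewer than 284 counts in any library, and the highest count was 5497. Of 7 Schwann cell markers, 5 were over 3 counts in every library, among them Sox10 (238 to 2080 counts), whereas S100b and Egr2 never passed 18 and 15 counts. The fibroblast gene Col1a1 reached 13184 counts while Dcn and Lum stayed at or under 3. Of 5 macrophage markers, Ptprc and Adgre1 never passed 1 count, Csf1r and Aif1 never passed 20 and 10, and Cd68 held 65 to 239. None of 3 endothelial markers passed 13 counts. The summed Schwann cell markers moved with the drugs. They lay between 47.6 and 50.2 CPM (counts scaled to a common library size) with DMSO, 237 and 243 with GSK215, 207 and 230 with BSJ-04-146, 106 and 118 with VS-4718, and 37.5 and 41.0 with PROTAC FAK Degrader 1. The summed macrophage markers, mostly Cd68 (3.24 CPM with DMSO and 11.2 with PROTAC FAK Degrader 1 in the group means), lay between 3.57 and 3.94 CPM with DMSO, 11.5 and 12.4 with PROTAC FAK Degrader 1, 6.54 and 8.29 with GSK215, and 8.13 and 9.81 with BSJ-04-146. The summed fibroblast markers, mostly Col1a1 (378.8 CPM with DMSO in the group means), lay between 381 and 402 CPM with DMSO. They lay between 299.9 and 304 with PROTAC FAK Degrader 1, 495 and 499 with GSK215, and 374 and 413 with BSJ-04-146. Another of these markers, Pdgfra, averaged 11.95 CPM with DMSO, 8.965 with PROTAC FAK Degrader 1, 27.7 with GSK215 and 27.1 with BSJ-04-146. The part of these markers in the results that follow was not tested. Ptk2, which encodes FAK, averaged 95.3 ± 2.40 CPM (SD, n = 3) with DMSO, 77.9 ± 0.644 with GSK215, 79.7 ± 1.49 with BSJ-04-146 and 97.7 ± 3.50 with PROTAC FAK Degrader 1. With the kinase inhibitors it averaged 86.5 ± 2.46 CPM (defactinib), 84.3 ± 0.924 (VS-4718), 87.2 ± 2.17 (GSK2256098) and 90.7 ± 1.91 (ifebemtinib). An mRNA level does not check drugs that act on the protein. Counts of the whole Nf2 gene, at 158 to 189 CPM in the group means, do not resolve the deleted part and check nothing about the genotype.

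The promoters of the members were searched on both strands for TCACNCCAC, a form of the sterol regulatory element that SREBP binds. They were also searched for the CCAAT box that the cofactor NF-Y binds. Windows ran from 250 bases before to 50 bases after the start annotated by RefSeq (GRCm38.p6). A window was held for 5 members, Hmgcs1, Idi1, Lss, Cyp51 and Insig1. This form of the sterol regulatory element was found in 1 of the 5, and 1.24% of the 32851 windows of all genes held it. Sites spelled otherwise were not searched for, so a window without a match is not shown to lack a site. A CCAAT box was found in 5 of the 5, against 37.4% of all windows. The 3 stretches printed here are those in which a match lies upstream of the annotated gene. All 8 members were lower with GSK215 and with PROTAC FAK Degrader 1, so these drugs do not set the 3 genes apart. Capitals mark the CCAAT box, here read on the other strand as ATTGG, and in Hmgcs1 also the sterol regulatory element TCACCCCAC. All 3 are on the plus strand of GRCm38.p6, at chr13:119690101-119690350 for Hmgcs1, chr10:76531355-76531587 for Lss and chr5:28071162-28071362 for Insig1.
Hmgcs1: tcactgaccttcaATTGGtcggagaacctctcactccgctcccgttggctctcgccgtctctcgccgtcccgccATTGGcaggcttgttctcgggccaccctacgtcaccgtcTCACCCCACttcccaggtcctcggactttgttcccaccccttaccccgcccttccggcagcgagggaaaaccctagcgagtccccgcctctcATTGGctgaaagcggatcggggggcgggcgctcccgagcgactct
Lss: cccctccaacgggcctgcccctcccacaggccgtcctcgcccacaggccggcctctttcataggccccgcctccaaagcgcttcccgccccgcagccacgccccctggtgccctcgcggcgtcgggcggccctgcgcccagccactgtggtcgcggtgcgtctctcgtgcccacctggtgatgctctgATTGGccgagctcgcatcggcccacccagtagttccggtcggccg
Insig1: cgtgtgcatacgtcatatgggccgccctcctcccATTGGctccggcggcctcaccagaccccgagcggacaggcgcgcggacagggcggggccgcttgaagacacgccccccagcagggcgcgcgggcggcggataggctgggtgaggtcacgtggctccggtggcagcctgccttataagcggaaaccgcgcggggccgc
Counted from the RefSeq start, the sterol regulatory element of Hmgcs1 covers bases -137 to -129, with CCAAT boxes before and after it. The CCAAT box of Lss begins at base -62 and that of Insig1 at base -216. In Cyp51 and Idi1 the matches lie inside the gene as GENCODE places its start. A match of letters is a description of the window and not evidence that a factor was bound in these cells.

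Levels of the members were first compared within the DMSO libraries, per kilobase of annotated exon because longer genes collect more counts. Cyp51 was highest at 44.4 ± 0.0498 CPM per kilobase (SD, n = 3), followed by Insig1 at 40.7 ± 0.121, Sqle at 35.9 ± 0.545, Hmgcs1 at 30.9 ± 0.448, Fdps at 22.0 ± 0.477, Idi1 at 15.2 ± 0.947, Fdft1 at 11.4 ± 0.329 and Lss at 6.83 ± 0.160. The exon length of Lss, 10787 bases, unites all annotated transcripts, and lengths of the others ran from 3093 bases for Insig1 to 5546 for Sqle. From here on values are in CPM, scaled by the trimmed mean of M-values (TMM), and are compared between groups for 1 gene at a time. Sums of cell type markers are the exception and are in CPM on library totals.

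**Figure D1:**
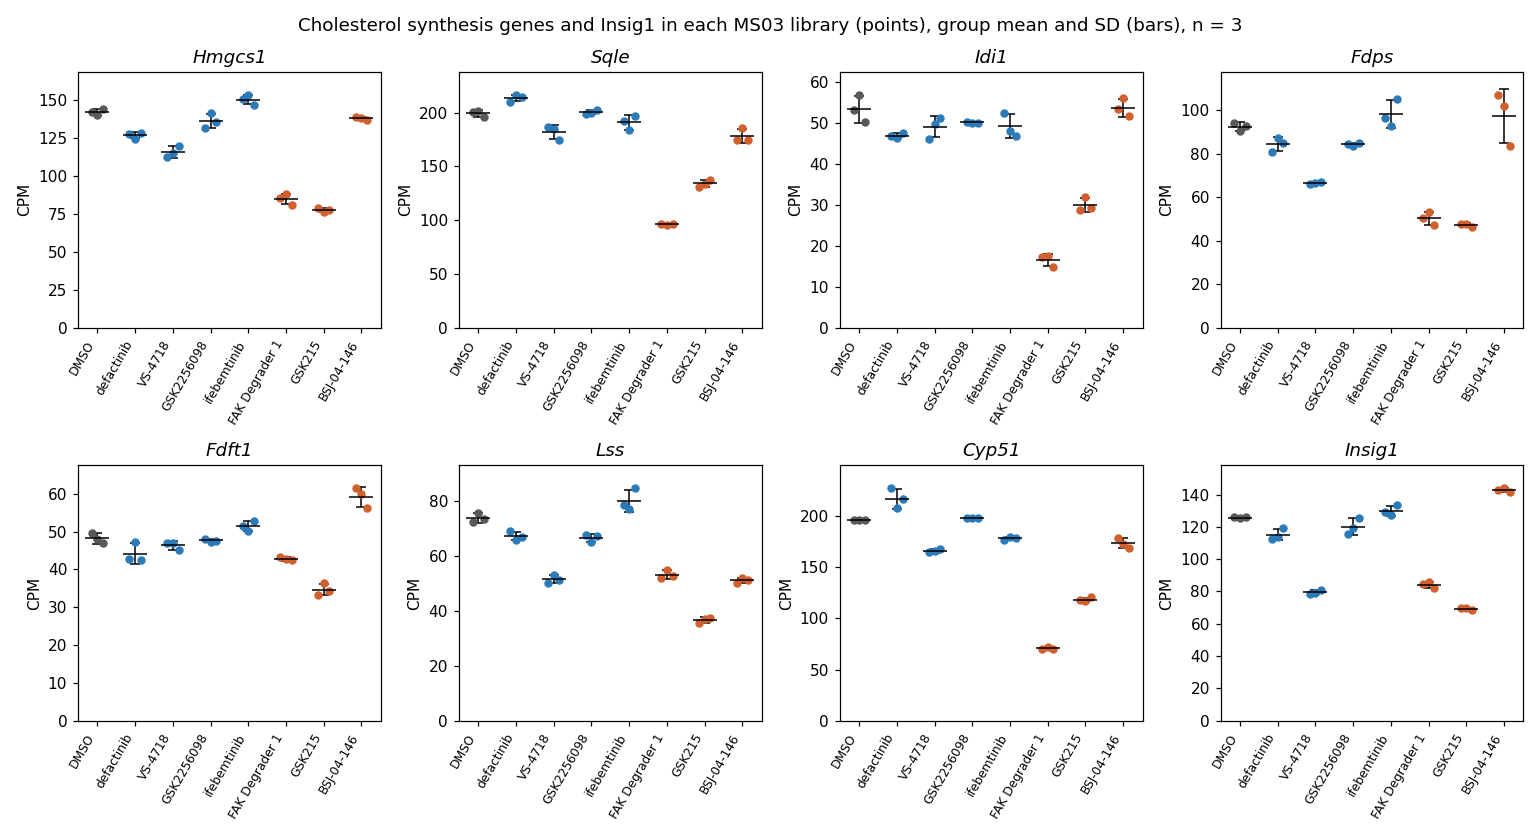
Level of each gene in each of the 24 libraries, in CPM on an axis that starts at 0, with DMSO in grey, kinase inhibitors in blue and PROTACs in orange. Points are libraries, and bars are the group mean and SD (n = 3). With GSK215 and with PROTAC FAK Degrader 1 all 3 libraries lie below all 3 DMSO libraries for each of the 8 genes.

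Hmgcs1, Idi1 and Fdps, the members that act first in the pathway, came down with GSK215 and with PROTAC FAK Degrader 1. With BSJ-04-146 the differences of these members did not pass under TMM scaling. TMM sets library sizes by a trimmed mean of gene ratios and is used where no other scaling is named. Hmgcs1 (ENSMUSG00000093930, chr13:119690379-119708260, plus strand, GRCm38) encodes the synthase that makes HMG-CoA. Its 3 DMSO libraries held 142, 140 and 144 CPM. The GSK215 libraries held 78.6, 76.1 and 77.6 CPM, the PROTAC FAK Degrader 1 libraries 85.5, 87.9 and 80.9, and the BSJ-04-146 libraries 139, 138 and 137. In these bulk libraries fewer cells that express a gene and less RNA per cell cannot be told apart. Both of the first drugs left Hmgcs1 far under control, while BSJ-04-146 sat just under the lowest DMSO library. Fitted log2 fold changes against DMSO were -0.88 ± 0.0359 (SE) with GSK215 (quasi-likelihood test of edgeR, Benjamini-Hochberg adjusted p = 1.36e-22), -0.75 ± 0.0351 with PROTAC FAK Degrader 1 (adjusted p = 3.47e-21) and -0.04 ± 0.0339 with BSJ-04-146 (adjusted p = 0.275, 95% interval -0.11 to 0.02). Among the kinase inhibitors, VS-4718 averaged 116 ± 3.84 CPM, defactinib 127 ± 1.93, GSK2256098 136 ± 4.75 and ifebemtinib 150 ± 3.09. In the order of the 8 means, libraries of neighbouring groups overlapped for 1 pair, BSJ-04-146 and GSK2256098.

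Idi1 (ENSMUSG00000058258, chr13:8885501-8892451, plus strand), which isomerizes the isoprene unit, showed the largest single change among the 8 genes. With DMSO it stood at 53.1, 56.9 and 50.3 CPM, with PROTAC FAK Degrader 1 at 17.2, 17.5 and 14.9, with GSK215 at 28.8, 31.9 and 29.3, and with BSJ-04-146 at 53.5, 56.2 and 51.8. The PROTAC FAK Degrader 1 libraries thus retained 31.0% of the control level and the GSK215 libraries 56.2%, both fitted ratios, while the BSJ-04-146 libraries fell among the controls. On the log2 scale the change was -1.69 ± 0.0612 with PROTAC FAK Degrader 1, -0.83 ± 0.0563 with GSK215 and 0.01 ± 0.0518 with BSJ-04-146, for edgeR adjusted p-values of 7.24e-25, 7.76e-16 and 0.886. Under scaling by library totals the last was 0.12 and passed as higher (adjusted p = 0.0495). In the 4 kinase inhibitor groups the means lay between 47.0 and 50.2 CPM. Their neighbours in the order overlapped from BSJ-04-146, the highest, down to defactinib.

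Fdps (ENSMUSG00000059743, chr3:89093588-89101959, minus strand) makes farnesyl pyrophosphate, from which both sterols and protein prenyl groups derive. Its DMSO libraries held 94.4, 90.4 and 92.7 CPM. GSK215 gave 47.8, 47.6 and 46.2 CPM and PROTAC FAK Degrader 1 gave 50.5, 53.3 and 47.2, which overlapped each other and lay far below control. VS-4718 gave 66.3, 66.7 and 67.0, also below every control. The log2 changes were -0.97 ± 0.0580, -0.88 ± 0.0566 and -0.47 ± 0.0532 in that order of drugs (edgeR adjusted p = 1.86e-17, 6.53e-17 and 2.26e-09). BSJ-04-146 libraries held 107, 102 and 83.5 CPM and scattered on both sides of control (0.08 ± 0.0531, edgeR adjusted p = 0.219). This value turned on 1 library, since without BSJ-04-146 replicate 3 the difference was 0.17 with an adjusted p of 0.00157. It also passed as higher under scaling by library totals (0.19, edgeR adjusted p = 0.00204). Of the exon bases of Fdps, 1124 (26.7%) are also annotated to Gm43738 on the same strand, which collected 45 counts over the 24 libraries.

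The squalene steps were next. Fdft1 (ENSMUSG00000021273, chr14:63145150-63179578, minus strand), squalene synthase, moved least with PROTAC FAK Degrader 1. DMSO libraries held 49.7, 47.9 and 47.0 CPM, PROTAC FAK Degrader 1 43.3, 42.7 and 42.4, GSK215 33.4, 36.3 and 34.3, and BSJ-04-146 61.4, 59.9 and 56.1. GSK215 was thus below, and BSJ-04-146 above, every other library of these groups. Log2 changes against DMSO were -0.17 ± 0.0460 with PROTAC FAK Degrader 1 (edgeR adjusted p = 0.00134), -0.47 ± 0.0483 with GSK215 (adjusted p = 6.46e-11) and 0.30 ± 0.0449 with BSJ-04-146 (adjusted p = 4.26e-07). With scaling by library totals alone the first of these was -0.09 with an adjusted p of 0.0800. Fdft1 shares 774 exon bases (18.3% of its exons) with Ctsb, a lysosomal protease gene on the other strand, whose log2 change was 0.82 with GSK215, 0.85 with BSJ-04-146 and -0.06 with PROTAC FAK Degrader 1. Whether counting used strand is not given in the sources used here, so reads of Ctsb and Fdft1 in the shared bases cannot be told apart and the values of Fdft1 are uncertain.

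Sqle (ENSMUSG00000022351, chr15:59315077-59331192, plus strand), squalene epoxidase and a rate-controlling enzyme of the pathway, gave 200.4, 201 and 196 CPM with DMSO. PROTAC FAK Degrader 1 gave 96.2, 95.7 and 96.4 CPM, GSK215 131, 133 and 138, and BSJ-04-146 174, 186 and 175. All 9 PROTAC libraries were below all 3 controls, those of PROTAC FAK Degrader 1 the furthest. The log2 changes were -1.05 ± 0.0340, -0.57 ± 0.0333 and -0.16 ± 0.0326 in that order (edgeR adjusted p = 2.14e-26, 9.38e-18 and 7.18e-05). The last was -0.05 (adjusted p = 0.184) under scaling by library totals. Between GSK2256098 (200.1 ± 1.80 CPM) and BSJ-04-146 (178 ± 6.42 CPM), each pair of neighbours in the order of means overlapped, and defactinib stood above at 214 ± 3.08 CPM.

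Lss (ENSMUSG00000033105, chr10:76531588-76557138, plus strand), lanosterol synthase, was lower with all 3 PROTACs, at fitted levels of 49.7%, 72.1% and 69.4% of control with GSK215, PROTAC FAK Degrader 1 and BSJ-04-146. It stood at 72.3, 75.6 and 73.2 CPM with DMSO, 35.5, 37.1 and 37.2 with GSK215, 52.0, 54.9 and 52.6 with PROTAC FAK Degrader 1, and 50.2, 52.0 and 51.3 with BSJ-04-146. VS-4718 gave 50.2, 53.0 and 51.3, which overlapped the latter PROTACs. Changes on the log2 scale were -1.01 ± 0.0434 with GSK215, -0.47 ± 0.0405 with PROTAC FAK Degrader 1, -0.53 ± 0.0415 with BSJ-04-146 and -0.52 ± 0.0395 with VS-4718, with edgeR adjusted p-values from 6.63e-22 for GSK215 to 2.69e-13 for PROTAC FAK Degrader 1. Ifebemtinib lay at the other end of the order, at 80.0 ± 3.95 CPM.

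Cyp51 (ENSMUSG00000001467, chr5:4081145-4104746, minus strand), which removes a methyl group from lanosterol, hardly varied among the controls. DMSO libraries held 196, 196 and 196 CPM. PROTAC FAK Degrader 1 libraries held 70.4, 71.8 and 69.9 CPM, GSK215 libraries 118, 117 and 120, and BSJ-04-146 libraries 178, 173 and 169. The groups did not overlap. The corresponding log2 changes were -1.47 ± 0.0331, -0.73 ± 0.0316 and -0.18 ± 0.0307 (edgeR adjusted p = 1.79e-31, 8.29e-22 and 4.99e-06), and the last was -0.07 with an adjusted p of 0.0570 under scaling by library totals. Exon bases shared with Akap9 on the other strand make up 3.76% of Cyp51.

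Insig1 (ENSMUSG00000045294, chr5:28071363-28078662, plus strand), the sterol-dependent brake on SREBP processing, separated GSK215 and BSJ-04-146 most widely beside Fdps. DMSO libraries held 126, 125 and 126 CPM, GSK215 libraries 69.6, 69.7 and 68.4, VS-4718 libraries 78.6, 79.2 and 80.9, PROTAC FAK Degrader 1 libraries 84.5, 86.0 and 82.3, and BSJ-04-146 libraries 143, 144 and 142. Every library of the first 3 drugs lay below every control, and every BSJ-04-146 library lay above. Log2 changes were -0.86 ± 0.0359 with GSK215, -0.66 ± 0.0340 with VS-4718, -0.58 ± 0.0346 with PROTAC FAK Degrader 1 and 0.18 ± 0.0334 with BSJ-04-146 (edgeR adjusted p = 2.25e-22, 1.16e-18, 7.19e-18 and 1.11e-05). For the other drugs Insig1 averaged 115 ± 3.43 CPM with defactinib, 120.0 ± 5.18 with GSK2256098 and 130 ± 3.20 with ifebemtinib.

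Counted over the 8 members, PROTAC FAK Degrader 1 lowered 8, with log2 changes from -1.69 to -0.17 and a median of -0.81, where 32.7% of the 16070 tested genes were called lower and the median of all genes was 0.00452. GSK215 also lowered 8, from -1.01 to -0.47 with a median of -0.85, where 27.2% of tested genes were called lower and the median of all genes was 0.02. BSJ-04-146 lowered 3 (Lss, Cyp51 and Sqle) and raised 2 (Fdft1 and Insig1), where 26.9% of genes were called lower and 27.7% higher, and 3 did not pass. Under scaling by library totals this split turned to 1 lower (Lss) and 4 higher, since Cyp51 and Sqle no longer passed and Idi1 and Fdps passed as higher. A call of a single gene was thus frequent with each PROTAC. These 7 comparisons share the same 3 DMSO libraries and are not independent of each other. No member changed direction among its calls under any alternative scaling, although scaling by library totals shifted the median of all genes by up to 0.14 on the log2 scale.

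With the kinase inhibitors the log2 changes of the members lay between -0.66 and 0.15. VS-4718 lowered 7 of the 8 (18.9% of genes called lower), from -0.66 for Insig1 to -0.12 for Idi1, with a median of -0.27 over the 8. Lss, Fdps, Hmgcs1 (-0.30), Cyp51 (-0.24) and Sqle (-0.13) lay between, and Fdft1 did not pass (-0.06, edgeR adjusted p = 0.335). The call of Idi1 (edgeR adjusted p = 0.0469) was lost when any of 4 libraries was left out, with -0.14 and -0.08 without DMSO replicate 1 or 2 and -0.09 and -0.13 without VS-4718 replicate 1 or 2. It was also lost under scaling by library totals (-0.09, adjusted p = 0.181).

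Defactinib lowered 5 members (11.0% of genes called lower) and raised 2 (11.4% called higher), all by small amounts. Lower were Idi1 (-0.19), Hmgcs1 (-0.17), Lss (-0.13), Fdft1 (-0.13) and Insig1 (-0.13). Higher were Cyp51 (0.15) and Sqle (0.10), whose 3 defactinib libraries were each above the 3 controls. Fdps, at -0.13, had an edgeR adjusted p of 0.0638. It passed as lower without the filter on low counts (edgeR adjusted p = 0.0122) and with only the 6 libraries of the comparison (adjusted p = 0.00881). The same held with libraries thinned to the smallest total (adjusted p = 0.0417). Calls of 4 members depended on single libraries. Without DMSO replicate 2 the changes of Idi1 (-0.14), Lss (-0.12) and Fdft1 (-0.13) no longer passed. Fdft1 also failed without DMSO replicate 1 (-0.11), defactinib replicate 1 (-0.11) or defactinib replicate 3 (-0.10) and under scaling by library totals (-0.11), and Sqle failed without DMSO replicate 3 (0.09) or defactinib replicate 2 (0.09) or 3 (0.10).

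GSK2256098 lowered 1 member, Lss (-0.15, edgeR adjusted p = 0.00764), where 6.09% of genes were called lower. That call was lost without DMSO replicate 2 (-0.13) or GSK2256098 replicate 2 (-0.13). The other 7 members ranged from -0.13 for Fdps to 0.01 for Cyp51. Fdps passed as lower without the filter on low counts (edgeR adjusted p = 0.0276) and with only the 6 libraries of the comparison (adjusted p = 0.00244). The same held with libraries thinned to the smallest total (adjusted p = 0.0422). Ifebemtinib lowered Cyp51 (-0.14, edgeR adjusted p = 0.00147, 6.85% of genes called lower) and raised Lss (0.12, adjusted p = 0.0348, 6.44% called higher). The rise of Lss did not pass without DMSO replicate 1 (0.10) or 3 (0.11), or without ifebemtinib replicate 1 (0.13) or 3 (0.07), and Idi1 (-0.12) passed as lower without ifebemtinib replicate 1 (-0.17).

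**Figure D2:**
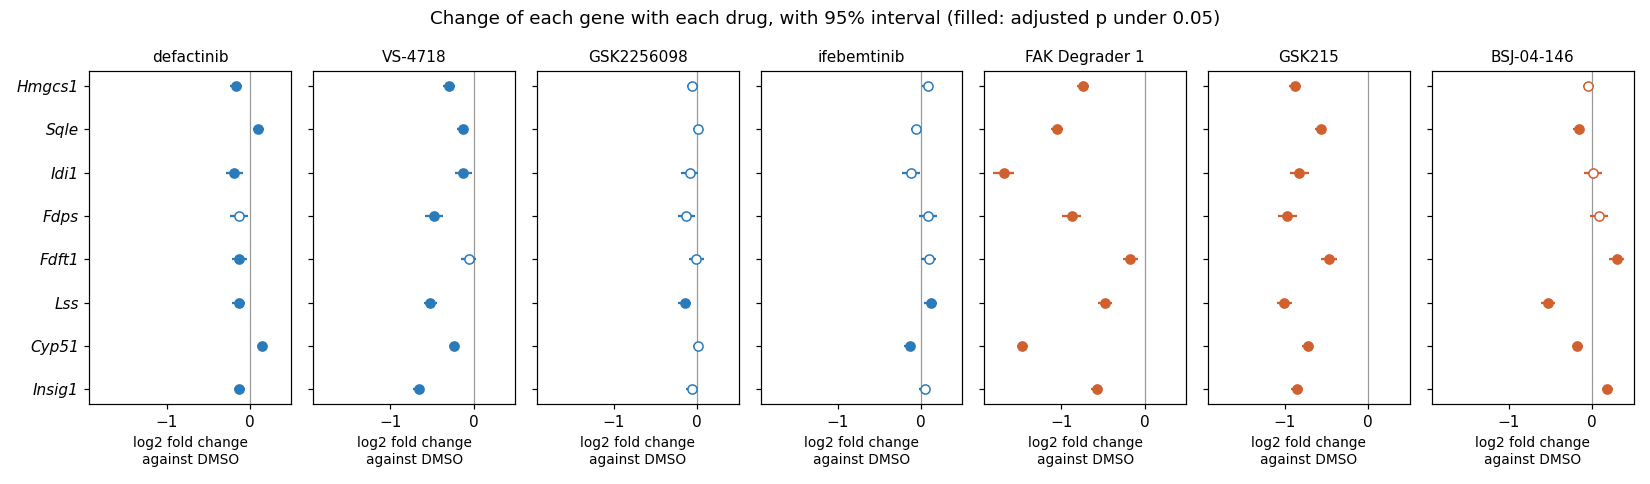
Log2 fold change against DMSO of each gene (vertical axis) with each drug (panels), with its 95% interval as a line and filled points where the edgeR adjusted p was under 0.05. PROTAC FAK Degrader 1 spreads the genes from -1.69 to -0.17, GSK215 holds them between -1.01 and -0.47, and BSJ-04-146 leaves them between -0.53 and 0.30.

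GSK215 and BSJ-04-146 were given at the same dose and time and could be compared directly. All 8 members were higher with BSJ-04-146, with differences from 0.41 to 1.05 on the log2 scale and a median of 0.80, where 12.6% of tested genes were called higher and 9.88% lower. In each of the 8 genes the 3 BSJ-04-146 libraries lay above the 3 GSK215 libraries. For a single gene the exact two-sided permutation test of 3 libraries against 3 cannot go below p = 0.1, which is the value each member reached. Fdps (1.05, 95% interval 0.93 to 1.17) and Insig1 (1.04, 0.97 to 1.12) differed most, by ratios of 2.07 and 2.06. Idi1 (0.84), Hmgcs1 (0.83) and Fdft1 (0.77) followed, then Cyp51 (0.55), Lss (0.48) and Sqle (0.41). The edgeR adjusted p-values ran from 5.21e-23 for Insig1 to 3.89e-10 for Lss. Scaling by library totals moved the median of all genes between these drugs by less than between either and DMSO (-0.00870 against 0.14 for GSK215 and 0.13 for BSJ-04-146). The summed Schwann cell markers were 207 to 230 CPM with BSJ-04-146 and 237 to 243 with GSK215, and their part in these differences was not tested.

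At 1 μM, 10 pairs of drugs were compared. PROTAC FAK Degrader 1 was lower than ifebemtinib in 8 of 8 members (31.1% of genes called lower), lower than GSK2256098 in 8 (33.6%) and lower than defactinib in 7 (34.0%), with Fdft1 not passing (-0.04, 95% interval -0.14 to 0.05). Against VS-4718 it was lower in 6 (34.3% called lower) and higher in 1, Insig1 (34.6% called higher). The members parted in this last pair. Idi1 (-1.57), Cyp51 (-1.23) and Sqle (-0.92) were far lower with the PROTAC, whereas Insig1 differed by 0.08 (95% interval 0.01 to 0.16) and Lss by 0.05 (-0.04 to 0.13, edgeR adjusted p = 0.336). The small differences in Fdft1 and Insig1 were not stable. Under scaling by library totals Fdft1 fell out against GSK2256098 (from -0.16 to -0.09, edgeR adjusted p = 0.0883), which left 7 members called there, and against VS-4718 (-0.07, adjusted p = 0.165). In the latter pair Fdft1 (-0.11) also fell out without VS-4718 replicate 1 (-0.09) or 2 (-0.11) or without any one PROTAC FAK Degrader 1 library (-0.11, -0.10 and -0.09), and Insig1 fell out without VS-4718 replicate 1 (0.09) or 2 (0.08) or PROTAC FAK Degrader 1 replicate 2 (0.08).

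VS-4718, used as a stand-in for defactinib in mice, was lower than defactinib in 6 members (16.0% of genes called lower). The differences were -0.53 for Insig1, -0.39 for Cyp51, -0.38 for Lss, -0.34 for Fdps, -0.23 for Sqle and -0.13 for Hmgcs1. Idi1 (0.06, 95% interval -0.04 to 0.17) and Fdft1 (0.07, -0.02 to 0.16) did not pass. GSK2256098 was higher than VS-4718 in 6 members (12.8% called higher), up to 0.59 for Insig1, and ifebemtinib was higher than VS-4718 in 6 (19.6% called higher), up to 0.71 for Insig1. In the last of these pairs Sqle (0.07) did not pass, but it did without VS-4718 replicate 1 (0.10) or ifebemtinib replicate 2 (0.11), while Cyp51 (0.10) did not pass under scaling by library totals (0.07).

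Ifebemtinib against defactinib gave 5 members higher (17.9% of genes called higher) and 2 lower (16.6% called lower). Hmgcs1 (0.24), Fdps (0.22), Fdft1 (0.22), Lss (0.25) and Insig1 (0.17) were higher with ifebemtinib, and Cyp51 (-0.28) and Sqle (-0.16) lower. Ifebemtinib against GSK2256098 gave 4 higher (9.78% called higher), namely Lss (0.27), Fdps (0.22), Hmgcs1 (0.14) and Insig1 (0.11), and 1 lower (11.2% called lower), Cyp51 (-0.15). Insig1 fell out without GSK2256098 replicate 1 (0.09) or ifebemtinib replicate 3 (0.10). GSK2256098 against defactinib gave 2 lower, Cyp51 (-0.13) and Sqle (-0.09), where 5.59% of genes were called lower, and 1 higher, Hmgcs1 (0.10), where 5.89% were called higher. Sqle (edgeR adjusted p = 0.0478) fell out whichever of the 6 libraries was left out, at -0.11 to -0.09, and Hmgcs1 without any one defactinib library (0.11, 0.09 and 0.11) or GSK2256098 replicate 2 (0.08) or 3 (0.10). Without defactinib replicate 2, Fdft1 passed as higher (0.16).

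**Figure D3:**
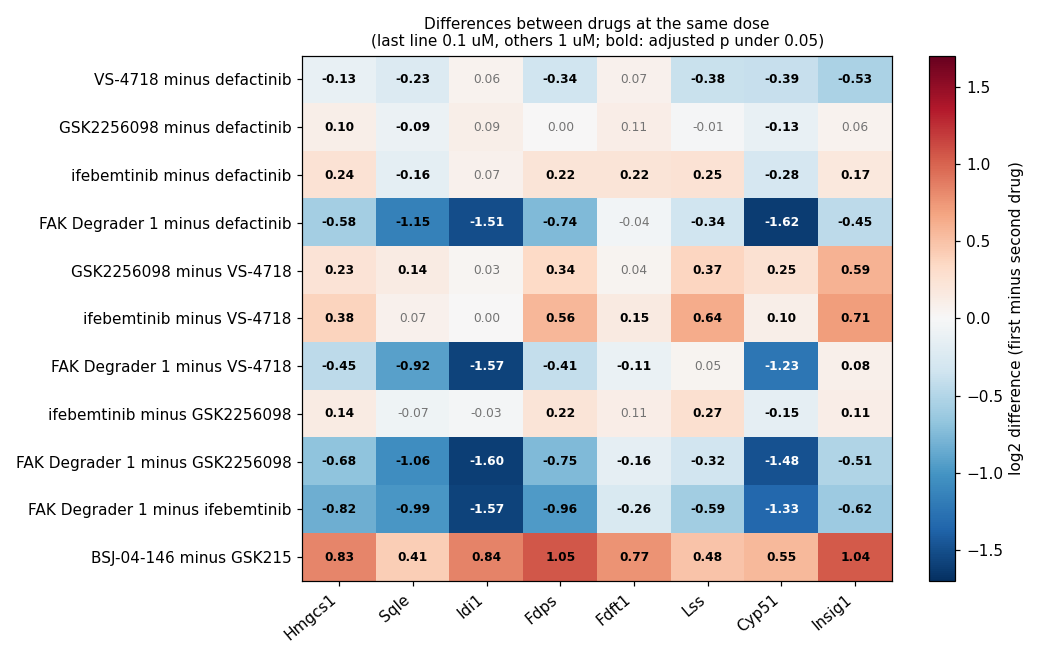
Differences between drugs at the same dose (rows, first drug minus second) for each gene (columns), as log2 values printed in each cell and coloured from blue (lower with the first drug) to red (higher). Bold values passed an edgeR adjusted p of 0.05. The last row, BSJ-04-146 minus GSK215, is positive for all 8 genes, from 0.41 to 1.05.

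The doses of PROTAC FAK Degrader 1 and GSK215 differed, so their values stand side by side without a test. Idi1 changed by -1.69 and -0.83, Cyp51 by -1.47 and -0.73, and Sqle by -1.05 and -0.57. Hmgcs1 (-0.75 and -0.88), Fdps (-0.88 and -0.97), Insig1 (-0.58 and -0.86), Lss (-0.47 and -1.01) and Fdft1 (-0.17 and -0.47) stood in the opposite order.

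Of 13 other synthesis enzymes, 12 were tested, and Idi2 never passed 7 counts. With PROTAC FAK Degrader 1, 10 were lower and 1 higher (median -0.99). With GSK215, 10 were lower and 2 higher (median -0.43), and with BSJ-04-146 4 were lower and 3 higher (median 0.00875). Over all tested genes the shares called lower and higher against DMSO, which are the background of this and each later list, were 32.7% and 34.1% with PROTAC FAK Degrader 1, 27.2% and 27.4% with GSK215, 26.9% and 27.7% with BSJ-04-146, 18.9% and 20.4% with VS-4718, 11.0% and 11.4% with defactinib, 6.09% and 6.36% with GSK2256098, and 6.85% and 6.44% with ifebemtinib. Dhcr7, which reduces the sterol ring, averaged 99.4 ± 2.88 CPM with DMSO and 27.1 ± 1.01 with PROTAC FAK Degrader 1 (-1.88 ± 0.0462, edgeR adjusted p = 3.44e-30). The sterol ketone reductase Hsd17b7 went from 46.0 ± 0.573 to 12.5 ± 1.28 CPM (-1.87), and Acat2, the thiolase at the head of the pathway, from 116 ± 2.72 to 37.4 ± 1.54 CPM (-1.63). These were the 3 lowest log2 fold changes of the list with this drug. With GSK215 the same genes changed by -0.44, -0.36 and -0.72. With BSJ-04-146 Dhcr7 changed by -0.46, while Hsd17b7 (0.03, edgeR adjusted p = 0.561) and Acat2 (0.02, adjusted p = 0.674) did not pass, although Acat2 passed as higher under scaling by library totals.

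Tm7sf2, a sterol reductase whose step Lbr also performs, was higher with GSK215 and BSJ-04-146 and lower with PROTAC FAK Degrader 1. It averaged 8.65 ± 0.255 CPM with DMSO, 26.2 ± 2.25 with BSJ-04-146 (1.60 ± 0.0837, edgeR adjusted p = 3.03e-19), 11.1 ± 1.29 with GSK215 (0.38) and 6.97 ± 0.593 with PROTAC FAK Degrader 1 (-0.31). Lbr stood far higher, at 245.5 ± 1.60 CPM with DMSO. It was lower with PROTAC FAK Degrader 1 (117.8 CPM, -1.06), GSK215 (191.6 CPM, -0.36) and BSJ-04-146 (165.3 CPM, -0.57). Ebp, the sterol isomerase, was higher with GSK215 (0.33) and BSJ-04-146 (0.26) and lower with PROTAC FAK Degrader 1 (-0.92). The mevalonate kinases and decarboxylase stood apart with PROTAC FAK Degrader 1, where Pmvk was 0.30, Mvd -0.03 (not called) and Mvk -0.23, against -0.56, -0.47 and -0.43 with GSK215. Tm7sf2, Dhcr7, Hsd17b7 and Acat2 were named by the rule for other lists, while Ebp, Pmvk, Mvd, Mvk and Lbr were picked after their values were seen. Directly compared, BSJ-04-146 was higher than GSK215 in 8 of the 12 and lower in 1, Lbr (-0.21), with a median difference of 0.52. Of all tested genes, 12.6% were called higher and 9.88% lower between these 2 drugs. Among the 4 kinase inhibitors, VS-4718 had 8 of the 12 lower and 1 higher (median -0.17), ifebemtinib 5 and 2, defactinib 1 and 4, and GSK2256098 had 1, Tm7sf2 (0.30), which was higher. That call was lost without DMSO replicate 1 or 2 (0.29 each) or GSK2256098 replicate 1 (0.30) or 3 (0.26).

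**Figure D4:**
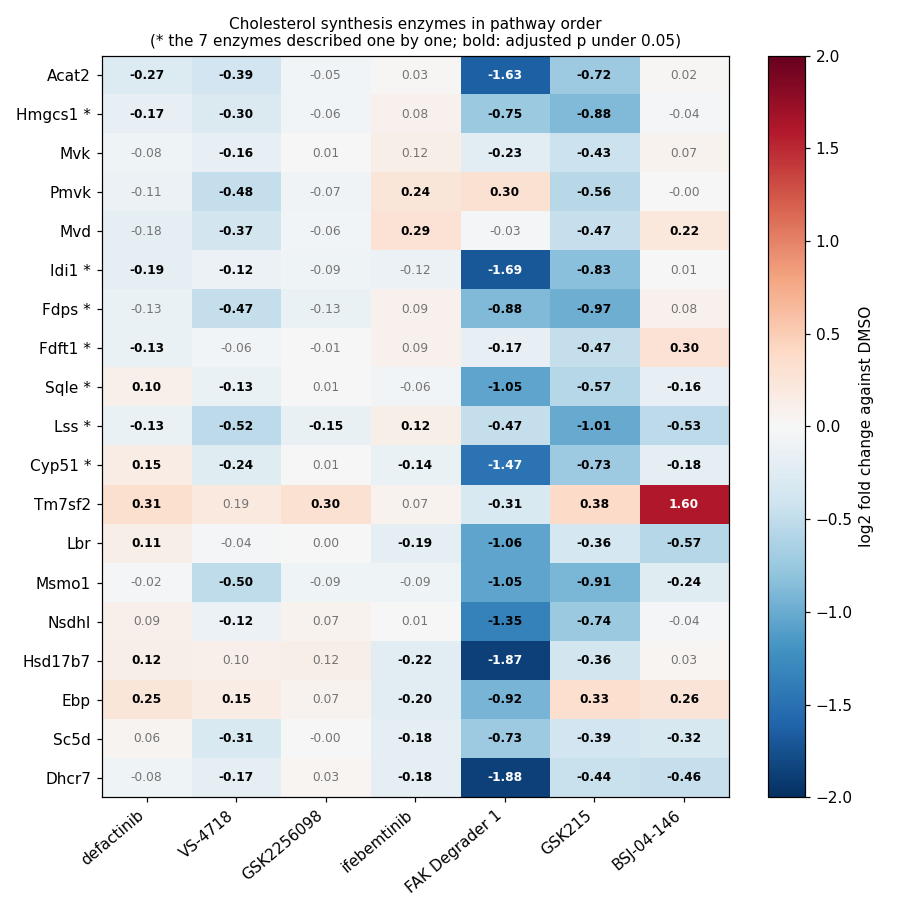
Log2 fold change against DMSO of 19 synthesis enzymes in pathway order from top to bottom (rows) with each of the 7 drugs (columns), blue for lower and red for higher, with bold values past an edgeR adjusted p of 0.05 and an asterisk on the 7 enzymes described gene by gene. The PROTAC FAK Degrader 1 column reaches -1.88 at the bottom (Dhcr7), and the BSJ-04-146 column holds 1.60 for Tm7sf2.

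Genes that sense sterol and process SREBP had calls in both directions with each PROTAC. Of 11 tested, 7 were lower and 3 higher with PROTAC FAK Degrader 1 (median -0.24), 3 lower and 5 higher with GSK215 (median 0.06), and 3 lower and 3 higher with BSJ-04-146 (median -0.00192). Over all genes 27.2% were called lower and 27.4% higher with GSK215, against which nothing is read from its counts here, and 32.7% and 34.1% with PROTAC FAK Degrader 1. Insig2, the sister of Insig1, rose with PROTAC FAK Degrader 1 from 38.2 ± 1.34 to 65.7 ± 4.35 CPM (0.78, edgeR adjusted p = 3.45e-18), the opposite of Insig1. With GSK215 Insig2 was 39.8 ± 1.18 CPM (0.06, edgeR adjusted p = 0.353). Insig2 was also called higher with ifebemtinib (0.28) and BSJ-04-146 (0.16), and with BSJ-04-146 Insig1 was higher too (0.18). Rnf145, a sterol-responsive ubiquitin ligase, averaged 142 ± 2.07 CPM with DMSO, 83.4 ± 1.83 with PROTAC FAK Degrader 1 (-0.77), 242 ± 4.73 with GSK215 (0.77) and 233 ± 4.49 with BSJ-04-146 (0.71). Another ligase of this system, Rnf139, was -0.42 with PROTAC FAK Degrader 1 and 0.13 with GSK215. Erlin1, which binds cholesterol in the endoplasmic reticulum, was 0.49 with PROTAC FAK Degrader 1 and -0.27 with BSJ-04-146. Srebf2, which encodes SREBP-2, and Srebf1 are named here after their values were seen. Srebf2 was -0.36 with PROTAC FAK Degrader 1, -0.34 with GSK215 and 0.00790 with BSJ-04-146, and BSJ-04-146 was above GSK215 by 0.35 (edgeR adjusted p = 8.08e-10). Srebf1 was lower with all 3 PROTACs, at -0.43, -0.46 and -0.31 (edgeR adjusted p = 3.45e-09 with BSJ-04-146). Of the 11 genes, 2 were higher with BSJ-04-146 than with GSK215, Srebf2 and Srebf1, and 6 were lower (median -0.08). Over all genes 12.6% were called higher and 9.88% lower in that comparison. Defactinib changed 8 of the 11 and GSK2256098 changed 6, all upward, VS-4718 raised 5 and lowered 2, and ifebemtinib raised 1 and lowered 3.

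Uptake and intracellular transport of sterol was covered by 8 tested genes other than the members. PROTAC FAK Degrader 1 lowered 4 and raised 4, GSK215 lowered 4 and raised 3, and BSJ-04-146 lowered 5 and raised 3. These shares stand beside 66.8%, 54.7% and 54.6% of all tested genes called in either direction with these drugs, with calls higher and lower about as frequent. The receptor gene Lrp8, which binds apolipoprotein E and reelin, averaged 119 ± 2.16 CPM with DMSO, 46.7 ± 0.575 with PROTAC FAK Degrader 1 (-1.35), 55.5 ± 1.27 with GSK215 (-1.10), 66.4 ± 3.82 with BSJ-04-146 (-0.84) and 83.3 ± 1.89 with VS-4718 (-0.51), so that it was lower with all 3 PROTACs. Vldlr, a related receptor, rose with PROTAC FAK Degrader 1 (0.83), ifebemtinib (0.39) and defactinib (0.27). It fell with VS-4718 (-0.70), BSJ-04-146 (-0.38), GSK2256098 (-0.31) and GSK215 (-0.27). The cholesterol carrier Stard4, a known SREBP target, fell from 67.1 ± 0.865 CPM to 32.9 ± 2.53 with GSK215 (-1.03), 42.9 ± 1.90 with PROTAC FAK Degrader 1 (-0.65) and 51.7 ± 0.964 with BSJ-04-146 (-0.38). It was higher with BSJ-04-146 than with GSK215 by 0.65 (edgeR adjusted p = 3.74e-12). Stard4 was also lower with VS-4718 (-0.40), defactinib (-0.21) and GSK2256098 (-0.185), and was not called with ifebemtinib (0.04). Lipa, the lysosomal lipase that frees cholesterol from its esters, rose with GSK215 (1.00) and BSJ-04-146 (0.98), from 33.7 ± 0.437 CPM to 67.5 ± 0.605 and 66.6 ± 1.07. It rose less with VS-4718 (0.38), PROTAC FAK Degrader 1 (0.34), defactinib (0.29) and GSK2256098 (0.18), and was not called with ifebemtinib (-0.04). Among the kinase inhibitors VS-4718 lowered 3 and raised 3, defactinib 1 and 4, GSK2256098 2 and 3, and ifebemtinib 1 and 1.

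Among genes of the sterol-sensing receptor LXR, Abca1 was higher with the PROTACs that lowered all 8 members. Of 8 genes of efflux, LXR and storage, 5 were tested, while Abcg1, Ch25h and Cyp27a1 never passed 0, 1 and 4 counts. Abca1, the cholesterol exporter, averaged 2.42 ± 0.278 CPM with DMSO, 10.3 ± 1.24 with PROTAC FAK Degrader 1 (2.08 ± 0.156, edgeR adjusted p = 6.66e-15), 7.09 ± 0.560 with GSK215 (1.53 ± 0.167, adjusted p = 3.05e-10) and 3.01 ± 0.567 with BSJ-04-146 (0.30 ± 0.195, adjusted p = 0.197). BSJ-04-146 was below GSK215 by 1.23 on the log2 scale, a fitted difference of -1.23 ± 0.172 with an edgeR adjusted p of 7.48e-07. Mylip, an LXR target that encodes a ubiquitin ligase for lipoprotein receptors, did not separate the PROTACs, with 8.98 CPM for DMSO and log2 changes of 1.42, 1.33 and 1.38 for PROTAC FAK Degrader 1, GSK215 and BSJ-04-146. Of the LXR genes themselves, Nr1h3 averaged 1.78 CPM with DMSO and rose with GSK215 (0.80) and BSJ-04-146 (0.85), and Nr1h2 rose most with PROTAC FAK Degrader 1 (0.44). In all, 3 of the 5 were higher and 1 lower with PROTAC FAK Degrader 1, 4 higher with GSK215, and 3 higher and 1 lower with BSJ-04-146, and 1 higher and 1 lower with VS-4718. With defactinib, GSK2256098 and ifebemtinib the edgeR test called 0 of the 5, where 2, 1 and 0 had an unadjusted p under 0.05 and DESeq2 called 0, 1 and 0.

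The genes whose 8 group means ran most like the mean of the members were ranked by Pearson's r over those 8 groups, as a description, among 10271 genes with a mean of at least 5 CPM. All the points share the library scaling, and the DMSO group is among them. The first was Msmo1, the sterol methyl oxidase that acts after Cyp51 (r = 0.978), and Nsdhl, which acts with it, was the eighth (r = 0.945). Msmo1 changed by -1.05 with PROTAC FAK Degrader 1, -0.91 with GSK215, -0.50 with VS-4718 and -0.24 with BSJ-04-146. Between them stood 2010204K13Rik (r = 0.977), Arfip2 (0.959), Ppil3 (0.955), Kif22 (0.950), Anapc4 (0.947) and Col7a1 (0.946), and after them Gclm (0.944) and Hdac2 (0.943). Apart from Col7a1, with -0.84 for PROTAC FAK Degrader 1 and -0.56 for GSK215, these other genes changed by far less, as with Arfip2 at -0.11 and -0.10.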

How the data were processed

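RNA from frozen MS03 pellets was extracted with a Qiagen RNeasy Plus kit and made into poly(A)-selected NEBNext Ultra II libraries, per the labels. The authors deposited raw counts per gene, and the submitters' processing notes name Trimmomatic 0.36, STAR 2.5.2b, featureCounts of Subread 1.5.2 and GRCm38. The annotation release and the strand setting are not given in the sources used here, so genes with overlapping exons are uncertain. Columns were assigned by the library numbers in the labels.

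Counts were tested with edgeR 4.0.16 (R 4.3.3) by the quasi-likelihood test, with TMM scaling, filterByExpr and 1 model of the 8 groups (16 residual degrees of freedom). Of 49315 genes, 16070 were tested in 18 comparisons (7 drugs against DMSO and 11 pairs of drugs at the same dose), each with Benjamini-Hochberg adjustment over all of these genes at 0.05. The study's own scale, log2(CPM + 4), DESeq2 1.42.0, limma 3.58.1 and other settings served as alternatives. Levels are TMM-scaled CPM, except those of cell type markers, which are CPM on library totals. Coordinates and exon lengths came from GENCODE M21 (GRCm38).

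The 8 members, 5 other pathway lists and markers were chosen with earlier results of these data known. From each other list, the 4 genes with the largest range of group means were named, as were the 10 genes most like the members. From the lists first drawn up, 1 enzyme and 1 marker are not reported here. Of the 24 pairs of replicates, none agreed within sampling noise (chi-square per degree of freedom 1.73 to 8.48), so each library counts once. Same-numbered libraries did not deviate together (correlations -0.203 to 0.132), so replicate numbers were not used to pair samples. The steps were tested on simulated data.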

Additional observations from a re-analysis of the deposited data

How the results depend on the processing

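Of 109 calls of members over the 18 comparisons, 92 held under every alternative and 17 were lost under 1 or more, and no called member changed sign. Counts of members called stayed within 1.5 times under all alternatives except in the 4 comparisons named next. With libraries thinned to the smallest total, no call of a member for a PROTAC against DMSO changed. Against a main count of 1 for GSK2256098 against DMSO, the count was 2 without a filter on low counts, 2 with only the 6 libraries of the comparison, and 2 with libraries thinned to the smallest total (an alternative chosen after seeing the data). It ranged from 0 to 1 when 1 library was left out. Where it was 0 by edgeR, 2 or 3 members had an unadjusted p under 0.05. For ifebemtinib against DMSO (main count 2) it was 1 without the filter and 1 to 2 with a library left out. For GSK2256098 against defactinib (main count 3) it was 1 without the filter, 1 after thinning and 1 to 2 with a library left out. For defactinib against DMSO (main count 7) it was 4 to 6 with a library left out. Scaling by library totals turned the log2 change of Erlin1 with GSK215 to 0.0993, of Scap with BSJ-04-146 to 0.107 and of Osbp with BSJ-04-146 to 0.0061. It also moved the split of all called genes with GSK215 from 4407 higher and 4379 lower to 6190 and 2867, and with BSJ-04-146 from 4451 and 4320 to 6018 and 2966. With a replicate block, 1 of the 109 calls was lost, that of Sqle for GSK2256098 against defactinib (-0.0938, edgeR adjusted p = 0.0586), which took the count there from 3 to 2, and the other 17 counts of members called were unchanged. With 3 libraries a group, from 1 cell line at 1 dose and 1 time, differences of about 0.1 on the log2 scale lay at the limit of what was called.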

Other observations

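The isoprenoid branch, which leaves the pathway at farnesyl pyrophosphate toward ubiquinone and dolichol, was covered by 6 tested genes. With GSK215 and with BSJ-04-146, 4 were lower and 1 higher, with medians of -0.39 and -0.39. Between these drugs the edgeR test called 0 of the 6, with 0 at an unadjusted p under 0.05 and 0 by DESeq2. Of all tested genes, 12.6% were called higher and 9.88% lower with BSJ-04-146 than with GSK215. Pdss1, which builds the ubiquinone tail, averaged 49.7 ± 1.34 CPM with DMSO, 24.9 ± 2.17 with PROTAC FAK Degrader 1 (lower, edgeR adjusted p = 4.50e-20), 36.6 ± 0.432 with GSK215 (-0.44) and 36.7 ± 1.27 with BSJ-04-146 (-0.44). Its partner Pdss2 changed by -0.37, -0.50 and -0.46 in that order of drugs, and Nus1, a subunit of the dolichol-making enzyme, by -0.25, -0.40 and -0.41. Coq2, which attaches the ubiquinone tail, rose with PROTAC FAK Degrader 1 from 34.8 ± 1.65 to 57.3 ± 3.45 CPM (0.72). With PROTAC FAK Degrader 1, 3 of the 6 were lower and 1 higher, with VS-4718 3 and 1, with ifebemtinib 2 and 1, and with GSK2256098 1 was lower. With defactinib the edgeR test called 0 of the 6, with 0 at an unadjusted p under 0.05 and 0 by DESeq2.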
